A study of Glycine max with 2 samples.

Results

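NAC4 and NAC27 are a pair of soybean transcription factor genes of the NAC family, and the probe sets given their names read higher in salt-treated than in mock-treated seedlings. They were chosen as all soybean probe sets whose single gene symbol in the platform annotation is NAC4 or NAC27. The rule found 2 genes, with 3 probe sets, of 6031 genes that the annotation names and of 37593 soybean probe sets on the array. The members were selected on their log2 ratios of salinity over mock on these arrays, so those ratios are a description and carry no test. The other NAC genes, 13 in number with 27 probe sets, serve as background.

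Gene expression was measured in 14-day-old seedlings of Glycine max, cultivar Williams 82, with Affymetrix Soybean Genome Arrays, which carry sets of short probes for each transcript. The salinity group is a pool of RNA from seedlings given 150 mM NaCl for 1, 3, 6, 12 or 24 h, and the mock group is a pool from seedlings given water alone. Both groups share the cultivar, with no mutation or transgene named, and both grew in vermiculite at 25 °C with 16 h of light. Each pool was hybridised to 1 array. There is therefore no replicate, no error between plants and no test, and the pools hide any course over time. The labels do not name the organs sampled, and whether samples at 0 h entered the pools is open. In such bulk RNA, a change in the share of cells that hold a transcript and a change in its amount per cell cannot be told apart.

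NAC factors are named after the petunia gene NAM and the Arabidopsis genes ATAF and CUC. They share an N-terminal NAC domain that binds DNA and differ in a C-terminal part that regulates transcription. Some members act in the formation of shoot meristems, organ borders and secondary walls, while others respond to drought, salt and abscisic acid, the hormone that closes stomata and switches on dehydration genes. In soybean, NAC3 and NAC4 are known as genes that respond to osmotic stress, and NAC27 carries the RefSeq synonyms SIN1 and SNAC49, of which SIN1 stands for a salt-inducible NAC factor described in root growth under salt.

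The NAC4 probe set, Gma.5331.1.S1_a_at, had a log2 signal of 12.77 in the salinity pool and 9.99 in the mock pool. Its log2 ratio of 2.79 equals a level 6.89-fold higher in the salinity pool. Of the 32113 soybean probe sets above background on both arrays, it had the 94th highest ratio, and 0.293% had a ratio as high or higher. Background was taken as the 95th percentile of probe sets for 2 other organisms that the array carries, at log2 signals of 4.88 (salinity) and 4.94 (mock). NAC4 lay above it in both pools.

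NAC27 was read by a pair of probe sets, and both were higher in the salinity pool. Gma.5331.1.S1_at had a log2 signal of 12.61 in the salinity pool and 9.98 in the mock pool, a 6.18-fold difference. GmaAffx.93509.1.S1_s_at was dimmer on both arrays, at 10.81 in the salinity pool and 7.80 in the mock pool, and showed an 8.07-fold difference. The log2 ratios were 2.63 and 3.01. The lower and the higher of them ranked 125th and 62nd among the same 32113 probe sets. All 3 member probe sets pointed the same way, and their log2 ratios spanned 0.39.

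**Figure D1:**
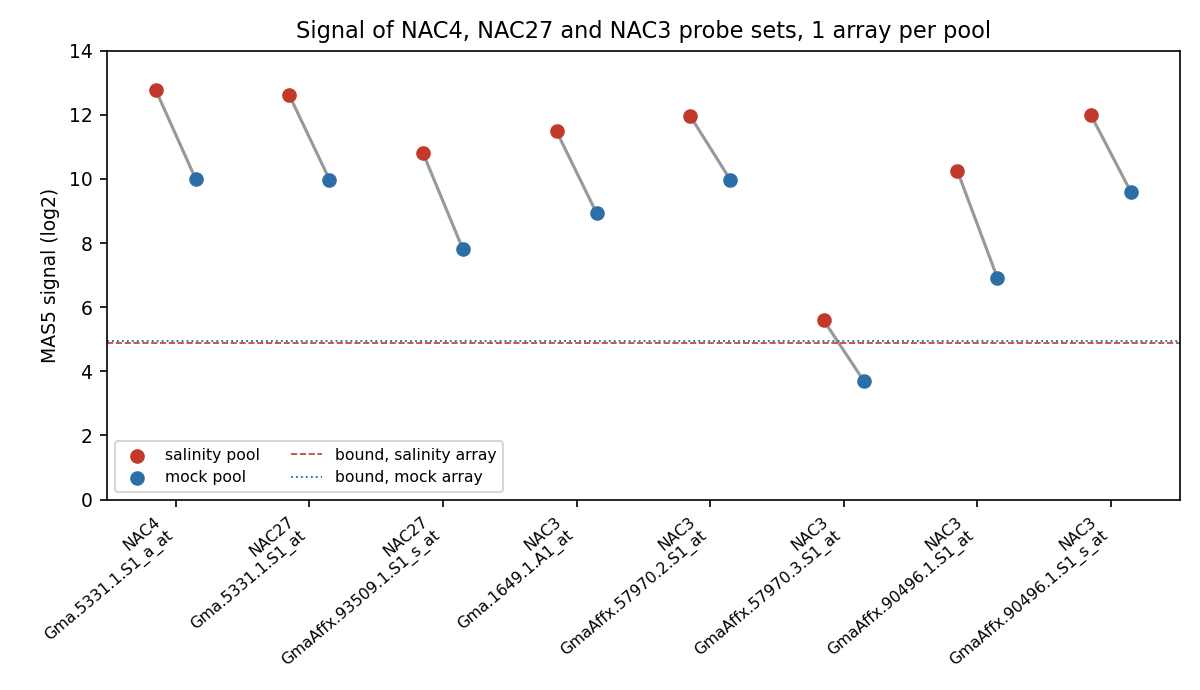
Log2 MAS5 signal (vertical axis) of each NAC4, NAC27 and NAC3 probe set, with the salinity pool at the left of each pair and the mock pool at the right. Each point is 1 array, and the dashed and dotted lines mark background. All 8 probe sets stand higher in the salinity pool, and 1 of NAC3 lies below background in the mock pool.

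The NAC4 value and the brighter NAC27 value cannot be taken as separate measurements of separate genes. The platform annotation assigns Gma.5331.1.S1_a_at to NAC4 and Gma.5331.1.S1_at to NAC27, yet it lists the same expressed sequence tag as the source of both. Their log2 signals differed by 0.16 on the salinity array and by 0.0055 on the mock array. The log2 ratios differed by 0.16, against a median absolute difference of 0.18 over 793 pairs of probe sets that share a tag and lay above background on both arrays. Only 8 of those 793 pairs (1.01%) were given different genes, this pair among them. The suffix _a marks a probe set that reads alternative transcripts of a gene, and the suffix _s of GmaAffx.93509.1.S1_s_at one shared by several transcripts. GmaAffx.93509.1.S1_s_at comes from a different tag and gave the highest of the 3 ratios. A higher level of NAC4, of NAC27 or of both therefore cannot be told apart on these arrays, and the gene names below stand for the probe sets that the annotation gives them.

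A further pair of probe sets carries the same transcript cluster number and no gene name. Gma.5331.4.S1_x_at, marked for cross-hybridisation, had a log2 signal of 6.80 in the salinity pool and 6.10 in the mock pool, a log2 ratio of 0.70. Gma.5331.4.S1_at read 4.89, at the background level, in the salinity pool and 3.00, below it, in the mock pool. The first of these ratios is below those of the named sets, the second set gives no usable ratio, and no gene is assigned to either here.

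The spread of MAS5 ratios depends on brightness, so the members were also read against probe sets of like brightness, with a mean log2 signal within 0.5. For NAC4 there were 2882 such sets, of which 120 (4.16%) were at least 2-fold higher in the salinity pool and 9 reached its ratio, itself included. For the brighter NAC27 set there were 3035, with 125 (4.12%) at least 2-fold higher and 10 at its ratio or above. For the dimmer NAC27 set there were 6025, with 190 (3.15%) at least 2-fold higher and 12 at its ratio or above. The SD of the log2 ratio over the like sets was 0.57 for NAC4, 0.58 for the brighter NAC27 set and 0.61 for the dimmer one. Over all measured soybean probe sets, 4.33% were at least 2-fold higher in the salinity pool and 5.36% at least 2-fold lower.

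**Figure D2:**
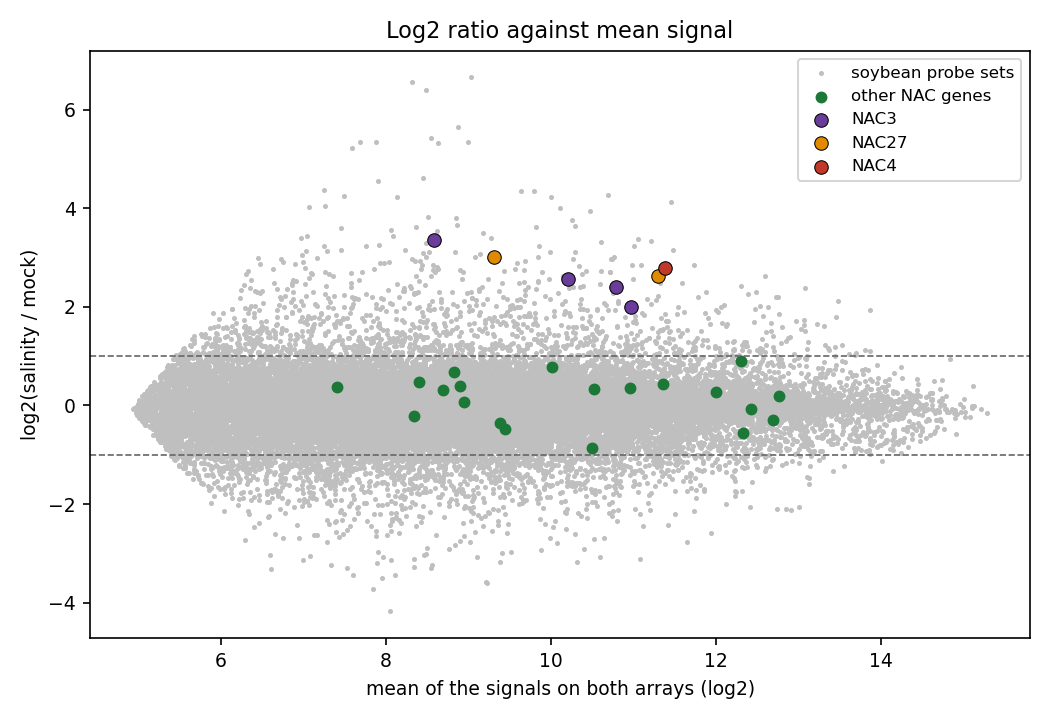
Log2 ratio of salinity over mock (vertical axis) against the mean log2 signal of both arrays (horizontal axis) for the 32113 soybean probe sets above background on both arrays, with NAC genes in colour. Dashed lines mark a 2-fold difference. The NAC4 and NAC27 points lie at ratios of 2.63 to 3.01, with 4 NAC3 points nearby and the other NAC points between the dashed lines.

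Among the other NAC genes, NAC3 was the one at least 2-fold higher, and none was at least 2-fold lower. Its 5 probe sets all stood higher in the salinity pool, and 4 of them passed 2-fold. GmaAffx.57970.2.S1_at, the brightest, had a log2 signal of 11.97 in the salinity pool and 9.98 in the mock pool, a 3.97-fold difference. GmaAffx.90496.1.S1_s_at read 11.99 in the salinity pool and 9.59 in the mock pool, a 5.29-fold difference. The ratios of both these sets lie below those of NAC4 and NAC27, but another NAC3 set, given next, lies above them.

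The other NAC3 sets ranged more widely. Gma.1649.1.A1_at had a log2 signal of 11.49 in the salinity pool and 8.93 in the mock pool, a 5.89-fold difference that also lies below NAC4 and NAC27. GmaAffx.90496.1.S1_at read 10.26 in the salinity pool and 6.91 in the mock pool, a 10.2-fold difference and the largest of any NAC probe set with a single gene. GmaAffx.57970.3.S1_at had 5.59 in the salinity pool and lay below background in the mock pool, so its difference is at least 1.57-fold. Over the 4 sets above background on both arrays, the NAC3 log2 ratios of 1.99 to 3.35 overlap those of NAC4 and NAC27, and 1 NAC3 set, GmaAffx.90496.1.S1_at, lies above all 3 member sets.

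The remaining 12 NAC genes stayed within 2-fold in either direction. NAC2 had a log2 signal of 12.76 in the salinity pool and 11.86 in the mock pool, a 1.87-fold difference. NAC19 was 1.70-fold higher by its brightest set and had a log2 ratio of 0.30 by the other. NAC018, NAC51, NAC34, NAC26 and NAC23 lay between log2 ratios of 0.08 and 0.44 by their brightest sets. NAC26, with NAC14 the brightest pair by mean signal, had 12.86 in the salinity pool and 12.67 in the mock pool and so barely differed.

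At the low end stood NAC6, NAC12 and NAC22. NAC6, which in soybean acts with the NRP proteins in a cell death pathway of osmotic and endoplasmic reticulum stress, had a log2 signal of 10.07 in the salinity pool and 10.92 in the mock pool. Its level was thus 1.81-fold lower in the salinity pool. NAC12 was 1.48-fold lower by its brightest set, with 12.05 in the salinity pool and 12.62 in the mock pool, while the other set read a log2 ratio of -0.48. NAC22 was 1.29-fold lower, with its other set at a log2 ratio of -0.21. Both sets of NAC12 and both of NAC22 pointed down, but short of 2-fold.

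NAC14 had probe sets that pointed both ways. Its brightest set, marked for cross-hybridisation, gave a log2 ratio of -0.29, with 12.55 in the salinity pool and 12.84 in the mock pool. The other sets gave 0.36 and 0.69, so no direction can be given for this gene. NAC1 was read by 1 measured set at a log2 ratio of -0.06, and its other set lay at background on both arrays.

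**Figure D3:**
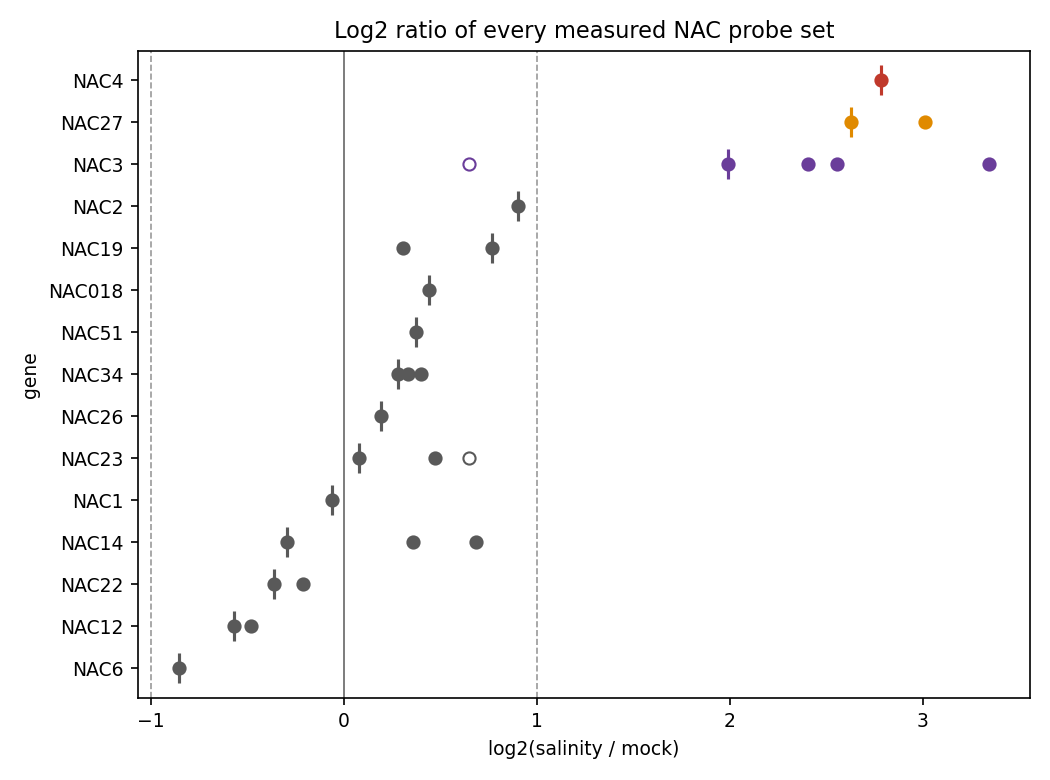
Log2 ratio of salinity over mock (horizontal axis) of each measured probe set of the 15 NAC genes (vertical axis), ordered by the brightest set, which has a vertical tick. Open circles are lower limits from sets above background in the salinity pool alone, and dashed lines mark 2-fold. All NAC4 and NAC27 sets and 4 of the 5 NAC3 sets stand to the right of the 2-fold line, while NAC2 is the next by brightest set at 0.90.

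Counted over genes by their brightest probe set, 1 of the 13 other NAC genes was at least 2-fold higher in the salinity pool, against 5.02% of the 5895 named genes measured. None was at least 2-fold lower, against 5.68% of named genes. The median log2 ratio of the 13 genes was 0.19, against -0.0033 over all named genes, and 8 of the 13 lay above 0. Over probe sets, 4 of 26 measured were at least 2-fold higher, all of them of NAC3, against 4.33% of all measured soybean probe sets, and 19 lay above 0. Without NAC3 the count was 0 of 21 probe sets and 0 of 12 genes, and the median over genes was 0.13. The count of 1 of 13 genes is near the share over named genes, and the higher share over probe sets comes from the several sets of that gene.

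The symbol rule does not reach every NAC gene, and 5 more carry a NAC number only as a RefSeq synonym. They were looked up after the values had been seen. LOC100170714, with the synonyms GmNAC109 and NAC21, had 4 probe sets at log2 ratios of 0.93 to 2.10, the lowest from its brightest set. LOC100170751, with the synonym NAC32, had 3 sets at 1.03 to 1.26, and its level was 2.05-fold higher by the brightest. LOC100816770, with the synonym NAC55, lay at -0.62. Both sets of LOC100814504 and the single set of LOC100170711 lay between 0.19 and 0.49. Of the 11 probe sets of these 5 genes, 6 were at least 2-fold higher, against 4.33% of all measured soybean probe sets, and none was at least 2-fold lower. By brightest set, 1 of the 5 genes passed 2-fold. None of the 11 sets reached the ratios of NAC4 and NAC27. A NAC5 probe set with 2 gene identifiers was left out of all these counts and had a log2 ratio of 2.18.

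Outside the NAC list, the genes most like NAC4 on these arrays were sought among 901 genes whose symbol is a proper name rather than a locus identifier. The measure was the distance between the pairs of log2 signals, over 2 arrays only, and it depends on probe brightness as well as on the ratio. The nearest was OLPa, for an osmotin-like protein of the pathogenesis-related kind, at a distance of 0.57. It had a log2 signal of 12.24 in the salinity pool and 10.18 in the mock pool, a 4.17-fold difference. GST24, for a glutathione S-transferase, lay at 0.72, the small heat shock protein gene HSP23.9 at 0.75, the pathogenesis-related gene PR1-7 at 0.79 and the isoflavone reductase gene IFR at 0.90. Each of these 5 differed less than NAC4, with folds of 3.31 for IFR, 3.67 for HSP23.9, 3.70 for GST24 and 4.92 for PR1-7.

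Stress-responsive NAC factors of Arabidopsis act beside DREB, AREB and LEA genes in the response to water loss, so a list of dehydration and abscisic acid genes, found by symbol or synonym, was set beside the members. It held 46 measured genes, of which 8 passed 2-fold upward in the salinity pool and 4 passed it downward, against the 5.02% and 5.68% over named genes. The median log2 ratio was 0.18, and 28 genes lay above 0. These values describe a mixed list, chosen with earlier results of these data known, so its counts are a description and carry no test. Its name patterns also took in aquaporin genes (PIP and TIP), ERF factors and ion transport genes. The higher genes were LEA5, a late embryogenesis abundant gene (16.0-fold), a DREB1-like factor (8.77-fold), the dehydrin gene MAT1 (6.76-fold) and the galactinol synthase gene GOLS (2.84-fold). They also held the factors DREB2A2 (2.27-fold), DREB5 (2.22-fold) and BZIP1, which carries the synonym AREB1 (2.18-fold), and the chloride channel gene CLC1 (2.07-fold). The log2 ratio of 2.79 for NAC4 differed little from the 2.76 of MAT1. The NAC27 sets lay on either side of MAT1, at 2.63 and 3.01. CLC1 had another set at 1.31 and a further one pointing the other way, at -0.34.

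The lower genes of that list by brightest set were the aquaporin gene PIP2-1 (3.34-fold lower), PDH (2.82-fold), COR2 (2.06-fold) and the factor ERF6 (2.04-fold). The other PIP2-1 set read a log2 ratio of -0.07, and the other PDH sets read -0.78 and 0.02, so both calls rest on 1 set each. The partners of NAC6 in cell death signalling, NRP-B and NRP-A, had log2 ratios of 0.83 and -0.41. Neither of the pair reached 2-fold. For NCED, the rate-limiting enzyme family of abscisic acid synthesis, no symbol or synonym matched the list.

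**Figure D4:**
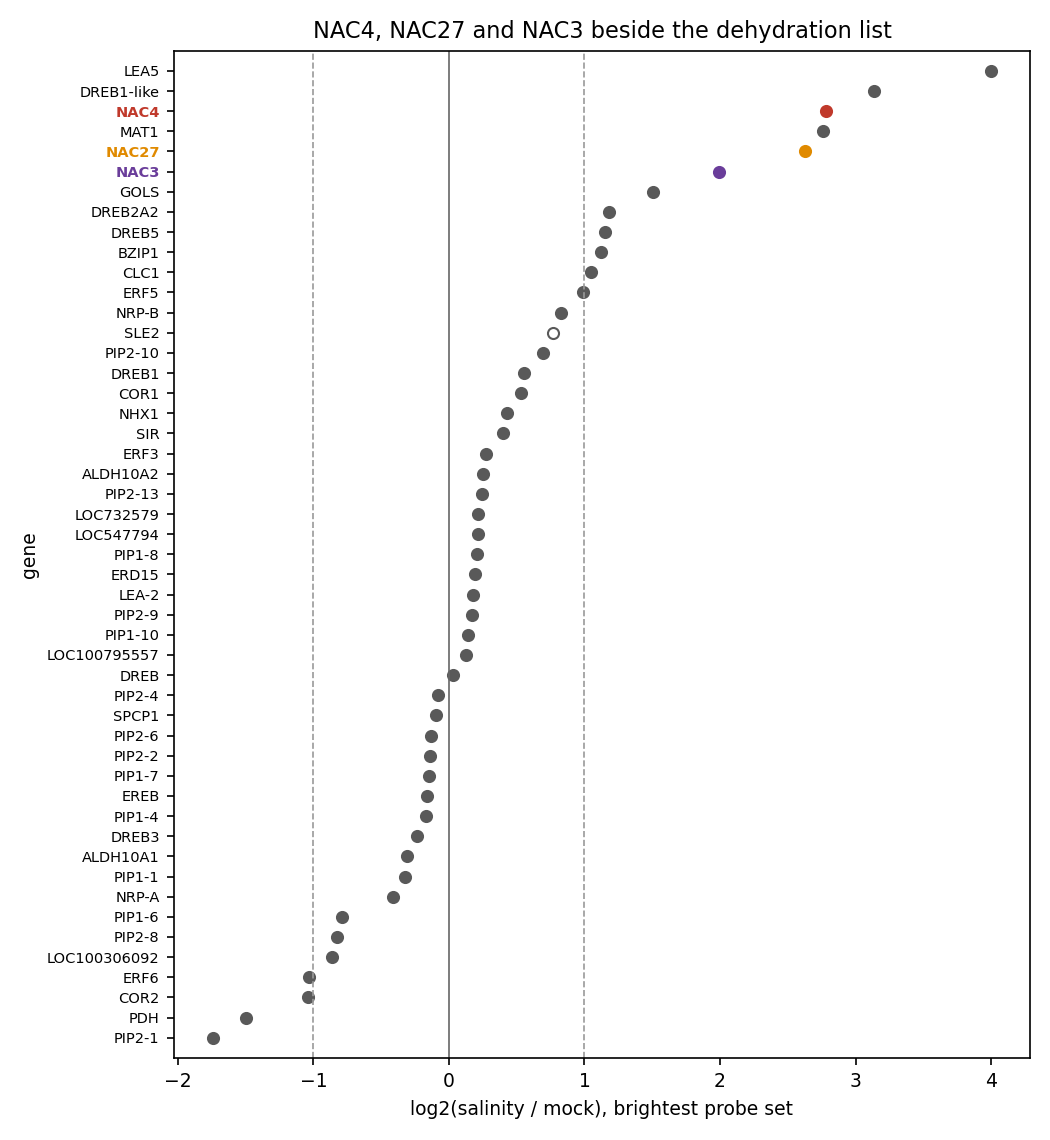
Log2 ratio of salinity over mock by the brightest probe set (horizontal axis) of the 46 measured genes of the dehydration list, aquaporin and ERF genes included. NAC4, NAC27 and NAC3 are in colour, and genes are ordered by ratio (vertical axis). The open circle is a lower limit and dashed lines mark 2-fold. LEA5 and the DREB1-like factor lie above NAC4, and MAT1 lies between NAC4 and the brightest NAC27 set.

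Only some genes near the members in the RefSeq gene order of assembly Glycine_max_v4.0 were read, and those stayed within 2-fold. Within 10 protein-coding genes on either side, 6 named neighbours were read by 11 probe sets, with log2 ratios of -0.69 to 0.21. Each member had 3 of these neighbours. The nearest one read for NAC4 lay 3 genes away, and all those of NAC4 lay on the same side. LOC100170710, the gene next to NAC27, gave -0.32, -0.38 and -0.50 by its 3 probe sets. These values stand against ratios of 2.63 to 3.01 for the members.

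Across the whole arrays, 87.8% of soybean probe sets lay above background in the salinity pool and 87.5% in the mock pool. The trimmed mean signal was 498.8 in the salinity pool and 498.5 in the mock pool. Whether the deposited signals had been scaled to a common trimmed mean is not stated, so this closeness does not compare the pools. Green tissue was present on both arrays, with the brightest set of 3 leaf genes at a log2 signal of 14.90 in the salinity pool and 15.14 in the mock pool. Of 11 probe sets for 8 seed storage genes, 4 were above background on at least 1 array, and the brightest read 6.22 in the salinity pool and 5.66 in the mock pool. The 2 nodule genes found pointed opposite ways and both passed 2-fold, ENOD55-2 at a log2 ratio of -1.76 and N-36A at 1.23. Probe sets for soybean ribosomal RNA had a median log2 ratio of 1.02 over 42 measured sets, 38 of them higher in the salinity pool. Unlike the other ratios, these were taken without raising signals below background. They ran from -5.21 to 7.16, with an SD of 2.10. Whether this difference in ribosomal RNA has a part in the NAC4 and NAC27 ratios was not tested.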

How the data were processed

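The deposited table holds 1 value for each of 61035 probe sets and 2 arrays on a log2 scale. Per the submitters' processing notes the authors used MAS5, with no version given. Further steps and a genome build were not stated there. The salinity and mock groups come from the labels.

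Signals below background, the 95th percentile of 23350 Phytophthora sojae and cyst nematode probe sets, were raised to it, and a set above it on 1 array gives a lower limit. Ratios of the ribosomal RNA sets used signals not raised in this way. Deposited values were not rescaled, and ratios are salinity over mock. A gene is represented by its set with the highest mean signal. Gene names come from the platform annotation and the RefSeq table of Glycine_max_v4.0, in which all 15 NAC genes were found. Sets with several genes were left out. With 1 array per group no test was made, and a rule of at least 2-fold was used. The number of arrays limits the precision.

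Named are all NAC4 and NAC27 sets, NAC genes at least 2-fold apart, the 3 lowest, the 2 brightest, those with opposed sets, 5 genes nearest to NAC4 in signal, and dehydration genes at least 2-fold apart. Other genes named were chosen after their values were seen. Members and lists were chosen with earlier results of these data known. The steps were tested on simulated data with less noise than the spread of these ratios, which checks the calculation and not the 2-fold calls. No sequences were at hand. Python 3.11.15 and pandas 2.3.3 were used.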

Additional observations from a re-analysis of the deposited data

Results flagged for a closer look

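One probe set outside the comparisons stood well above its mock level. Gma.8438.1.S1_at is assigned to 2 gene identifiers, both with the symbol NAC5, and was therefore left out. It had a log2 signal of 9.03 in the salinity pool and 6.85 in the mock pool, a log2 ratio of 2.18. The 4 probe sets shared between NAC genes of different symbols had log2 ratios of -0.09 to 0.85.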

How the results depend on the processing

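The 3 member probe sets kept their direction under median centring, quantile normalization, loess and log2(signal + 16) without a floor. Their ratios also stayed within the spread between probe sets of a gene (an SD of 0.295 in log2 ratio). Background at the 90th or 99th percentile could not change the 3 ratios, as no member signal lay below it. Their log2 ratios ranged from 2.77 to 2.80 for NAC4, from 2.61 to 2.64 for the brighter NAC27 set and from 2.93 to 3.03 for the dimmer one. The median of the other NAC genes ranged from 0.13 to 0.40. At 1.5-fold, 9 of 26 other NAC probe sets and 3 of 13 genes were higher, and 1 set and 1 gene lower. Of all 33784 measured soybean probe sets, 3790 were higher and 4829 lower. At 3-fold, 4 other NAC sets and 1 gene were higher and none lower, against 583 higher and 500 lower of the 33784. Shares over named genes were not counted at these folds. With the genes named by synonym, chosen after seeing the data, 10 of 37 other NAC sets were at least 2-fold higher (4.33% over all soybean sets). So were 2 of 18 genes (5.02% over named genes). Without NAC3, likewise chosen later, the list by symbol alone had 0 of 21 sets and 0 of 12 genes at least 2-fold higher. By the probe set with the largest ratio, a choice also added later, NAC3 reached 3.35. NAC14 gave 0.36 without marked sets and 0.25 as a mean over sets, against -0.29. The NAC4 set and the dimmer NAC27 set are themselves marked. Without marked sets NAC4 has no value and NAC27 keeps its brighter set alone. No paired analysis was possible because each group has 1 array.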
